A study of Mus musculus with 4 samples.

Results

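The genes described here carry pyruvate into mitochondria and through the tricarboxylic acid cycle. They were chosen by name, as 29 symbols of the mitochondrial pyruvate carrier, the pyruvate dehydrogenase complex, the cycle enzymes and the enzymes that refill the cycle. All 29 matched a gene ID, out of 55573 gene IDs listed for each library. Gene counts came from RNA sequencing of the quadriceps, the large thigh muscle, of mice at 7 weeks of age. Wild-type (WT) mice were C57BL/6J, and mice without a functional vitamin D receptor were of the strain B6.129S4-Vdrtm1Mbd/J, called knockout here, whose altered Vdr allele is carried in every cell of the body. Each group had 2 libraries. Both groups had the same weaning age and free access to regular chow and water, and no agent was given. The labels do not say that the libraries of a group came from separate animals, so the p-values cover only library-to-library spread, which may be technical.

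Pyruvate from glycolysis enters the mitochondrial matrix through a carrier and is turned into acetyl-CoA by the pyruvate dehydrogenase complex. The cycle then oxidises the acetyl group stepwise and passes electrons to the respiratory chain, and muscle draws on it for sustained contraction. Carboxylation of pyruvate refills the cycle with oxaloacetate, a step known for its part in glucose and fat synthesis in liver and fat cells.

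The WT libraries held 10.79 M and 13.03 M counts, and the knockout libraries 21.34 M and 11.21 M. Counts per 1 M reads (CPM) are scaled by edgeR's TMM factors. Each log2 fold change compares the knockout with WT, 2 libraries each, and is given ± SE. A gene is called where edgeR's quasi-likelihood test gives a Benjamini-Hochberg adjusted p below 0.05 over all 13076 tested genes. Vdr had 5 and 0 counts in the WT pair against 5 and 1 in the knockout pair, too few to check the genotype. The X-inactivation RNA Xist stood at 183 and 217 CPM in WT and at 0 and 0.256 CPM in the knockout, so the groups were of opposite sex. The Y-linked gene Ddx3y stood at 4.74 CPM in WT replicate 1, 0 in WT replicate 2 and 75.8 and 63.0 CPM in the knockout. Eif2s3y, Uty and Kdm5d, also Y-linked, stood at 1.99, 1.04 and 1.23 CPM in WT replicate 1. In WT replicate 2 they stood at 0.078, 0 and 0 CPM, and in the knockout between 13.2 and 33.1 CPM. The source of the Y-linked reads in WT replicate 1 was not tested. Genotype, sex and strain background cannot be told apart in any difference below. The 8 muscle markers were present at high levels, with summed CPM of 97070 and 90770 in WT against 84330 and 85610 in the knockout, and none was called. The log2 fold change was positive in 1 of the 8 and lowest for Ttn (-0.489, edgeR adjusted p = 0.0985). Ttn stood at 23780 and 23160 CPM in WT against 16100 and 17340 CPM in the knockout. Of 10 fat-cell markers 9 were called higher in the knockout and none lower, and none was at 0. Their summed level was 1102 and 1293 CPM in WT against 4488 and 4005 CPM in the knockout. In whole muscle, more cells of a type and more RNA per cell cannot be told apart.

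Of the 29 genes, 1 was called higher in knockout muscle and none was called lower. The called gene was Pcx, pyruvate carboxylase, at 2.44 times the WT level. The pyruvate carrier, the pyruvate dehydrogenase complex and the cycle enzymes held no called member. The share called among members, 3.45%, stood beside 2.47% of all tested genes called in either direction, 1.91% higher and 0.558% lower. At an unadjusted p below 0.05 there were 5 members higher, against 8.11% of all genes, and 1 lower, against 5.93% (14.0% in either direction). The 5 are Pcx, Me2, Idh1, Idh2 and Sdhd, and the 1 is Mpc2.

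Pcx (ENSMUSG00000024892) lies on chromosome 19 from 4510472 to 4621752 of build GRCm38. RefSeq gives it start sites 83.85 kb apart. The 250 bases before each are shown because Pcx is the called member. The counts are summed over the gene and do not say from which start its transcripts came. Capitals mark the CCAAT box on either strand (CCAAT or its reverse complement) and the E-box CACGTG. The first window lies at chr19:4510222-4510471 and the second at chr19:4594069-4594318, both on the plus strand of GRCm38.p6.
Pcx upstream start: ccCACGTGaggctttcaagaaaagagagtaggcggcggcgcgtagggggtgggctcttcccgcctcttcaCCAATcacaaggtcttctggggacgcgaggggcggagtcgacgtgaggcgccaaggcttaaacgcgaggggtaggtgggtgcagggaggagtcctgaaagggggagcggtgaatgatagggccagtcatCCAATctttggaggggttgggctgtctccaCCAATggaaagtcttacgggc
Pcx downstream start: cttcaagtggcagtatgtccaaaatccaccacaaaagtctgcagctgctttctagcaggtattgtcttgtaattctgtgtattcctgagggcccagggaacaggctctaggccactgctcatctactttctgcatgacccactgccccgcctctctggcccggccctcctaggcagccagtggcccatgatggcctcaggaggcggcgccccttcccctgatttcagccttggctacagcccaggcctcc
The upstream window holds 3 CCAAT boxes and 1 E-box, and the downstream window holds 0 of either.

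Promoter windows of the same length were found for 26 of the 29 members, 34 windows in all, and for 32851 windows over all genes. Idh3a, Sdhc and Me2 were not matched. A CCAAT box was in 18 of the 34 windows (52.9%), from 15 genes, and in 33.8% of all windows. An E-box was in 5 (14.7%), from 3 genes, against 6.02%, and windows of 1 gene can overlap. The motif TCAAGGTCA, read by estrogen-related receptors, was in 0 member windows and in 0.387% of all. Direct repeats of AGGTCA or of GGTTCA with 3 bases of any kind (NNN) between the copies, forms that the vitamin D receptor with its partner can bind, were each in 0 member windows and in 0.00609% of all. At shares as low as those of these repeats and of TCAAGGTCA, 0 matches in 34 windows cannot set the members apart from other genes. All motifs were searched on both strands, the E-box reads the same on both, and a match is a description of letters only.

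Pcx makes oxaloacetate from pyruvate in the matrix. Its normalised level was 71.6 and 97.8 CPM in the WT libraries and 209 and 205 CPM in the knockout libraries. Both knockout libraries lay above both WT libraries, and the WT libraries differed from each other more than the knockout libraries did. The log2 fold change was 1.29 ± 0.16 (SE), with a 95% interval of 0.94 to 1.63 and an edgeR adjusted p = 0.00106. It lay above 98.4% of the log2 fold changes of all tested genes. Leaving out each library in turn gave log2 fold changes from 1.08 to 1.53 for Pcx, with adjusted p from 2.26e-05 to 0.00611. Each such fit, here and below, leaves 1 group with a lone library that is assumed to vary like the pair of the other group, so its adjusted p rests on the spread of that pair and is no replicate check of the lone library. Per 100 CPM of the summed fat-cell markers, Pcx stood at 6.50 and 7.56 CPM in WT against 4.66 and 5.11 CPM in the knockout. The marker Cfd held 380 and 420 CPM of the sums of 1102 and 1293 CPM in WT. In the knockout it held 2142 and 1607 CPM of 4488 and 4005 CPM, so the ratio leans on Cfd. The part of the fat-cell markers in the rise of Pcx was not tested.

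The malic enzymes of mitochondria turn malate into pyruvate, Me2 with NAD and Me3 with NADP. Me2 (ENSMUSG00000024556) had 22 and 39 counts in WT against 107 and 46 in the knockout, the fewest of any member. That is 2.09 and 3.04 CPM in WT against 5.09 and 3.92 CPM in the knockout, without overlap between the groups. Its log2 fold change was 0.81 ± 0.29, with an interval from 0.18 to 1.45, and it was not called (edgeR adjusted p = 0.213). Me3 stood at 28.1 and 23.6 CPM in WT against 24.8 and 21.5 CPM in the knockout, and the groups overlapped (log2 fold change -0.16 ± 0.15). The ratio of Me3 to Me2 per kb of transcript was 7.94 and 4.57 in WT against 2.86 and 3.22 in the knockout, so Me3 was the more abundant of the pair in every library.

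**Figure D1:**
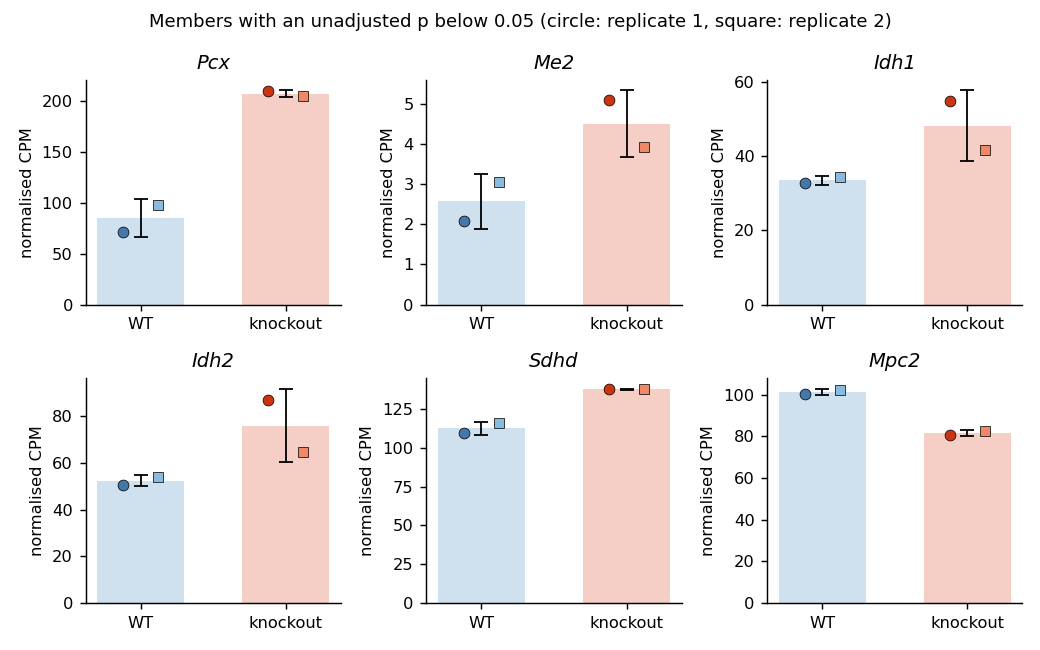
Normalised CPM of the 6 members with an unadjusted p below 0.05, where bars are group means, error bars are SD (n = 2) and points are libraries. Pcx reached 209 and 205 CPM in the knockout libraries against 71.6 and 97.8 CPM in WT, and Mpc2 is the one member of the 6 that was lower in both knockout libraries.

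Compared per kb of the principal transcript, the members spanned a wide range of levels. In WT muscle Sdhb, the iron-sulfur subunit of succinate dehydrogenase, stood highest at 148 ± 2.07 CPM per kb (SD, n = 2). Mdh2, mitochondrial malate dehydrogenase, followed at 137 ± 25.1 and Idh3b, a regulatory subunit of the NAD-linked isocitrate dehydrogenase, at 121 ± 5.67. Sdhb and Mdh2 did not differ beyond their spread, and the next members from Mpc1 (109 ± 13.7) to Cs (99.9 ± 5.60) lay within the SD of a neighbour. At the low end were Suclg2 (9.42 ± 0.346), Me3 (5.77 ± 0.710) and Me2 (0.972 ± 0.257 CPM per kb), and these 3 kept their places when the length of all annotated exons was used. The same change moved Mpc2 from rank 8 to rank 22 and Sdhd from rank 10 to rank 1. It moved Sdhb from rank 1 to rank 3, Mdh2 from rank 2 to rank 8 and Idh3b from rank 3 to rank 7. The order above the low end, the top included, thus depends on the length used. Pcx had rank 22 in WT at 20.9 ± 4.55 CPM per kb and reached 51.0 ± 0.831 in the knockout.

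**Figure D2:**
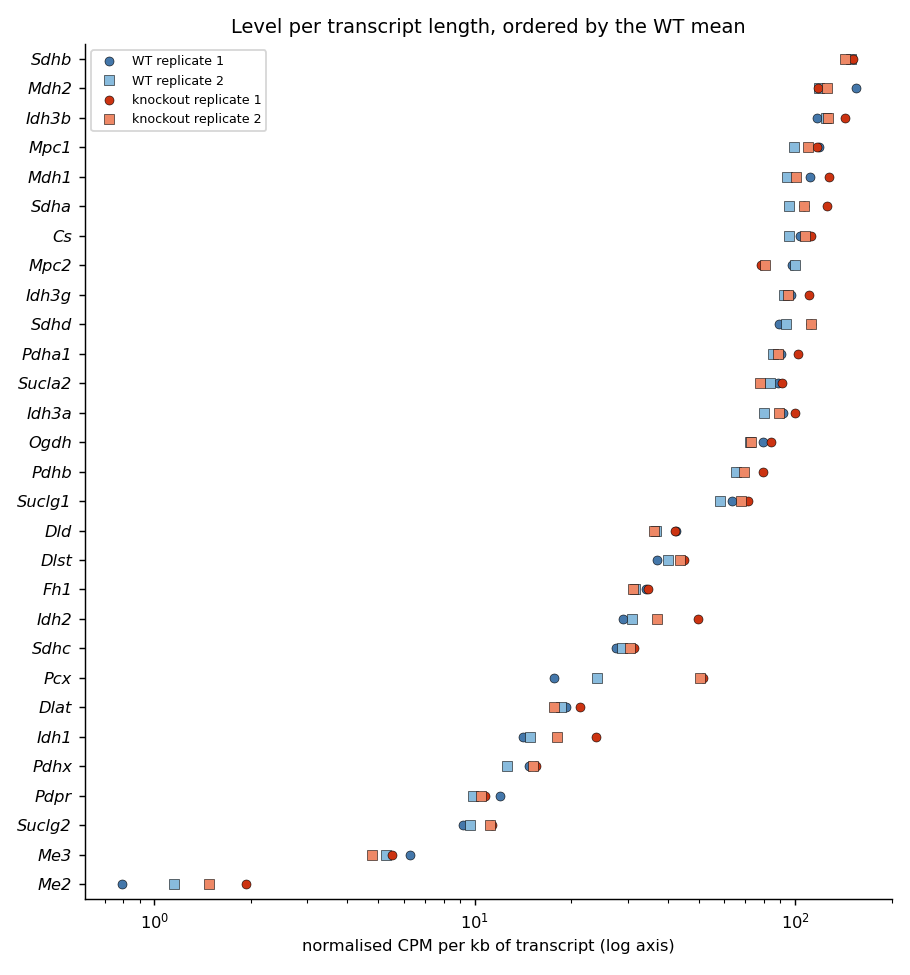
Normalised CPM per kb of the principal transcript on a log axis for each of the 29 members in each of the 4 libraries, ordered by the WT mean. Sdhb is at the top (148 CPM per kb in WT) and Me2 at the bottom (0.972), and Pcx is the gene whose knockout points stand farthest from its WT points.

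The mitochondrial pyruvate carrier is built from the subunits Mpc1 and Mpc2. Mpc1 stood at 114 and 95.3 CPM in WT against 112 and 105 CPM in the knockout, with overlapping groups and a log2 fold change of 0.06 ± 0.13. Mpc2 (ENSMUSG00000026568, chromosome 1, 165460637 to 165481214) stood at 100.1 and 102 CPM in WT against 80.4 and 82.7 CPM in the knockout, so both knockout libraries were below both WT libraries. Its log2 fold change was -0.31 ± 0.12, the lowest of the members, and it was not called (edgeR adjusted p = 0.260, interval -0.58 to -0.05). Without each library in turn the value for Mpc2 ran from -0.33 to -0.30. The ratio of Mpc1 to Mpc2 per kb was 1.22 and 0.996 in WT against 1.49 and 1.36 in the knockout.

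The pyruvate dehydrogenase complex holds Pdha1 and Pdhb, which decarboxylate pyruvate, Dlat, which passes the acetyl group to coenzyme A, Dld, which reoxidises the lipoyl arm, and Pdhx, which binds Dld to the core. Pdpr regulates the phosphatase that switches the complex on. Of these 6, none was called, 4 were positive in log2 fold change, with a median of 0.08 and a range from -0.04 to 0.18. Pdhb had the highest value, with 99.5 and 98.9 CPM in WT against 119.9 and 105 CPM in the knockout (0.18 ± 0.13), and its groups did not overlap. Pdpr had the lowest, with 59.2 and 48.9 CPM in WT against 53.2 and 51.6 CPM in the knockout (-0.04 ± 0.13), and its knockout values lay inside the WT range. The intervals of all 6 included 0 and stayed within 2-fold in either direction. Pdha1 is on the X chromosome, which the groups, being of opposite sex, carry in different number, and stood at 257 and 242 CPM in WT against 292 and 252 CPM in the knockout (0.12 ± 0.14).

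Within each library the subunits kept close ratios per kb. Pdha1 over Pdhb ranged from 1.27 to 1.37 over the 4 libraries, and Dlat over Pdhx from 1.17 to 1.47. Pdhb over Dlat ranged from 3.41 to 3.92, lower in both WT libraries than in both knockout libraries.

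**Figure D3:**
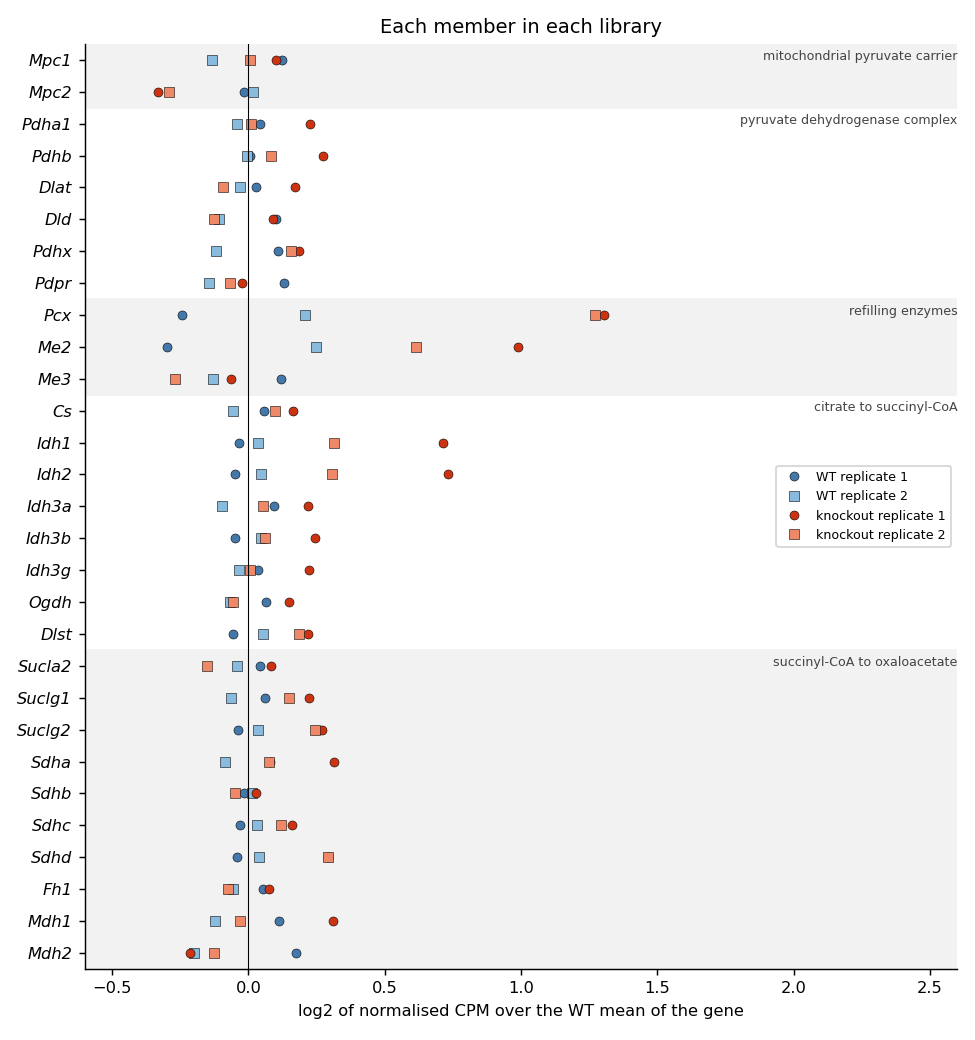
Log2 of normalised CPM over the gene's WT mean, for 29 members grouped by role and 4 libraries. Pcx stands apart in both knockout libraries, Me2, Idh1 and Idh2 are higher in both by less, and knockout replicate 1 lies to the right of knockout replicate 2 for 26 of the 29 members.

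From citrate to succinyl-CoA, all 8 members had a positive log2 fold change, beside 50.0% of all tested genes, and none was called. The median was 0.15, with a range from 0.05 to 0.54. Without knockout replicate 1 not all stayed positive, and Idh3g was at -0.000353. Cs, citrate synthase, which joins acetyl-CoA to oxaloacetate, stood at 304 and 281 CPM in WT against 327 and 313 CPM in the knockout (0.13 ± 0.13). Ogdh, the first subunit of the alpha-ketoglutarate dehydrogenase complex, had the lowest value, with 328 and 299 CPM in WT against 347 and 301 CPM in the knockout (0.05 ± 0.14). Its groups overlapped, and its value was -0.06 without knockout replicate 1 and -0.02 without WT replicate 2. Dlst, the core of that complex, stood at 102 and 111 CPM in WT against 124 and 121 CPM in the knockout (0.20 ± 0.12), without overlap.

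The NADP-linked isocitrate dehydrogenases were the 2 members of this span with an unadjusted p below 0.05. Idh1 (ENSMUSG00000025950, chromosome 1, 65158616 to 65186500), the enzyme of the cytosol and peroxisomes, stood at 32.7 and 34.3 CPM in WT against 55.0 and 41.6 CPM in the knockout. Its log2 fold change was 0.53 ± 0.15, with an interval from 0.21 to 0.86 and an edgeR adjusted p = 0.0994. Idh2 (ENSMUSG00000030541, chromosome 7, 80094846 to 80115392), the mitochondrial enzyme, stood at 50.7 and 54.1 CPM in WT against 87.1 and 64.8 CPM in the knockout. Its log2 fold change was 0.54 ± 0.15, with an interval from 0.21 to 0.87 and an edgeR adjusted p = 0.0997. Neither passed the threshold, the groups did not overlap for either gene, and knockout replicate 1 was the higher of its pair in both. Without knockout replicate 2, with the spread taken from the WT pair alone, Idh1 was at 0.72 (adjusted p = 0.0160) and Idh2 at 0.74 (adjusted p = 0.0165). Without knockout replicate 1 the values were 0.31 and 0.30, with adjusted p of 0.468 and 0.479. The ratio of Idh2 to Idh1 per kb was between 2.05 and 2.09 in all 4 libraries.

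The NAD-linked isocitrate dehydrogenase, which runs the step within the cycle, has the catalytic subunit Idh3a and the regulatory subunits Idh3b and Idh3g. Their log2 fold changes were 0.14 ± 0.14, 0.16 ± 0.13 and 0.12 ± 0.13. The ratio of Idh3a to Idh2 per kb was 3.15 and 2.58 in WT against 2.00 and 2.40 in the knockout, lower in both knockout libraries. The difference between the NADP-linked and NAD-linked enzymes in their response was not tested. Idh3g is the other X-linked member, at 129 and 123 CPM in WT against 147 and 126 CPM in the knockout, with overlapping groups.

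**Figure D4:**
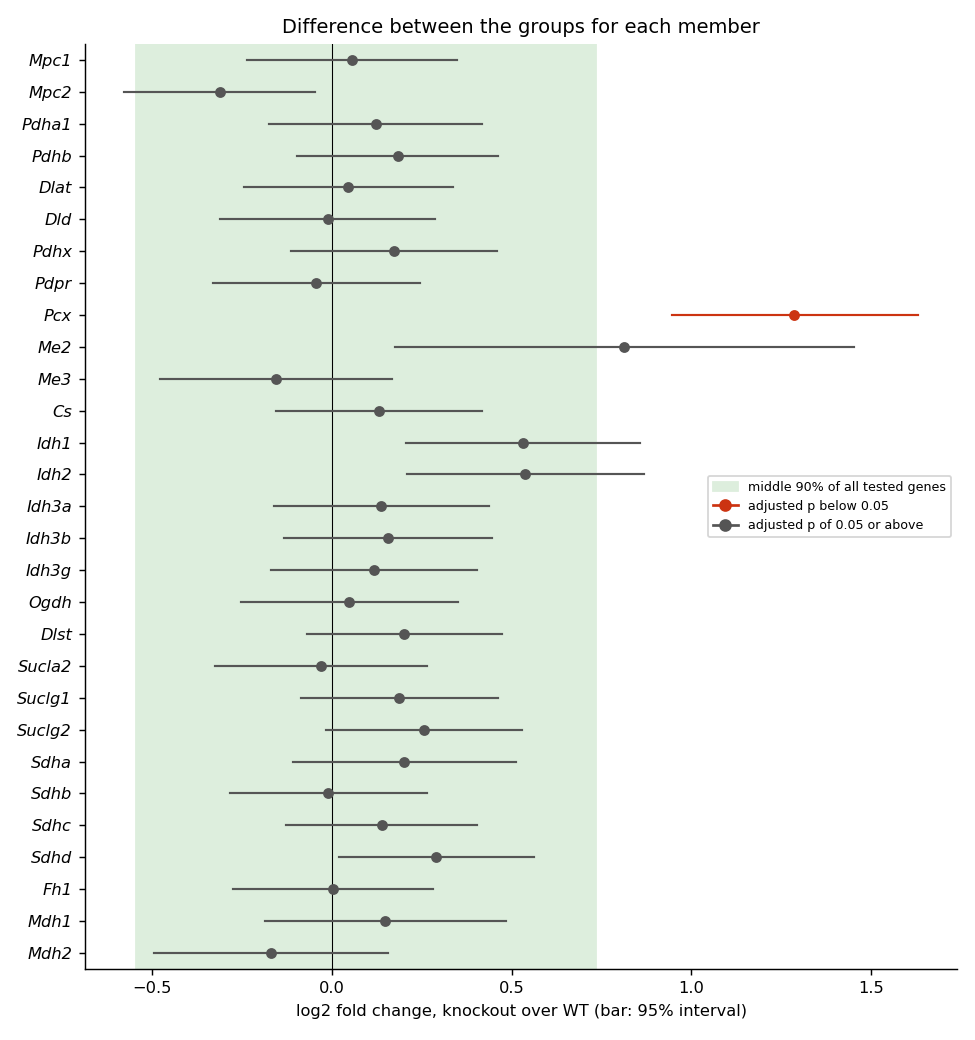
Log2 fold change of knockout over WT with 95% intervals for the 29 members, over a band that holds the middle 90% of the log2 fold changes of all tested genes (-0.55 to 0.74). Pcx, at 1.29, is the member in red (adjusted p below 0.05), and the intervals of 23 members include 0.

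From succinyl-CoA to oxaloacetate, none of 10 members was called, 7 had values above 0, and the median log2 fold change was 0.14, with a range from -0.17 to 0.29. Succinyl-CoA ligase pairs the common subunit Suclg1 with Sucla2, which makes ATP, or with Suclg2, which makes GTP. Sucla2 stood at 198 and 187 CPM in WT against 203 and 173 CPM in the knockout (-0.03 ± 0.14), with overlapping groups. Suclg2 stood at 30.9 and 32.5 CPM in WT against 38.2 and 37.6 CPM in the knockout (0.26 ± 0.12, edgeR adjusted p = 0.395), without overlap. Sucla2 was the more abundant partner in every library, and its ratio to Suclg2 per kb was 9.67 and 8.66 in WT against 8.04 and 6.94 in the knockout.

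Succinate dehydrogenase feeds electrons from the cycle into the respiratory chain. Sdhd (ENSMUSG00000000171, chromosome 9, 50596357 to 50603812), one of its membrane anchors, had the highest value of this span, with 109.5 and 115.7 CPM in WT against 137.7 and 138.0 CPM in the knockout. Both knockout libraries lay above both WT libraries, and the log2 fold change was 0.29 ± 0.12 (interval 0.02 to 0.56, edgeR adjusted p = 0.307). Sdha, the flavoprotein, was at 0.20 ± 0.14, Sdhc, the other anchor, at 0.14 ± 0.12, and Sdhb at -0.01 ± 0.13. Sdhb over Sdhd per kb was 1.65 and 1.59 in WT against 1.35 and 1.28 in the knockout. Sdhd lies next to Dlat on chromosome 9, with 30.82 kb between the genes, the closest pair of members, and Dlat had a log2 fold change of 0.05 ± 0.13.

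Fh1, fumarase, hydrates fumarate to malate and had a log2 fold change of 0.003 ± 0.13, with levels from 82.3 to 91.4 CPM over the 4 libraries. The malate dehydrogenases act in the cytosol (Mdh1) and in the matrix (Mdh2). Mdh1 stood at 236 and 200.5 CPM in WT against 270 and 213 CPM in the knockout (0.15 ± 0.15). Mdh2 stood at 225 and 173 CPM in WT against 172 and 183 CPM in the knockout, the lowest value of this span (-0.17 ± 0.15). Both pairs of groups overlapped. Mdh1 was at -0.04 without knockout replicate 1, and Mdh2 at 0.03 without WT replicate 1, so neither kept its sign. The ratio of Mdh1 to Mdh2 per kb was 0.719 and 0.793 in WT against 1.08 and 0.801 in the knockout.

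Over all 29 members the median log2 fold change was 0.14, beside 0 over all tested genes, and 22 (75.9%) were positive, beside 50.0% of all tested genes. The groups did not overlap in 13 members that were higher and 1 that was lower, beside 44.7% of all tested genes in either direction. The higher ones were 44.8% of the members, beside 23.0% of all genes, and the lower one was 3.45%, beside 21.7%. Knockout replicate 1 exceeded knockout replicate 2 in 26 of 29 members, where this held for 50.1% of all tested genes. The members' median log2 level over the WT mean was 0.22 in knockout replicate 1 and 0.06 in knockout replicate 2, and 0.04 and -0.04 in the WT libraries. Without knockout replicate 1, 17 of 29 members were positive and the median was 0.05, and without WT replicate 2 these were 20 and 0.07. Without knockout replicate 2 they were 25 and 0.22. The summed level of 9 markers of slow or oxidative fibres, of which none was called, was 362 and 430 CPM in WT against 549 and 256 CPM in the knockout, so knockout replicate 1 was the highest and knockout replicate 2 the lowest of the 4. The sum of 5 red blood cell markers, of which 3 were called higher, was 243 and 266 CPM in WT against 549 and 389 CPM in the knockout. That of 6 neutrophil markers, of which 2 were tested and none called, was 0.663 and 1.01 CPM in WT against 27.2 and 2.90 CPM in the knockout. Both sums were highest in knockout replicate 1. The marker lists of glycolytic fibres, brown fat cells, macrophages, endothelial cells, fibroblasts and tendon held no called gene. All 7 macrophage markers had positive log2 fold changes (median 0.226), and 0 of 4 tendon markers did (median -0.559). Positive values were found in 2 of 6 glycolytic fibre, 1 of 5 endothelial, 2 of 4 fibroblast and 3 of 6 tested brown fat markers. The WT libraries lay far apart for the brown fat markers Ucp1 (1.52 and 34.0 CPM) and Cidea (3.32 and 15.6 CPM). In the knockout these stood at 12.1 and 14.6 CPM and at 34.9 and 32.2 CPM. The part of fibre type, blood cells and fat cells in the members' levels was not tested. The 95% intervals of 27 members stayed within 2-fold in either direction, and Pcx and Me2 were the exceptions.

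**Figure D5:**
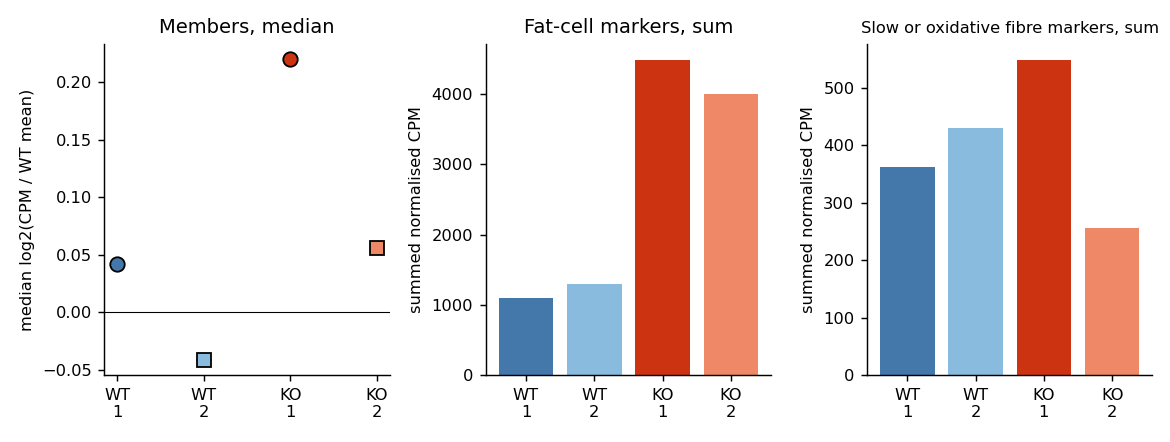
For each of the 4 libraries, the median over members of log2(CPM over the WT mean), the summed normalised CPM of 10 fat-cell markers and that of 9 slow or oxidative fibre markers. The fat-cell sum is 4488 and 4005 CPM in the knockout libraries against 1102 and 1293 CPM in WT, while the members' median (0.22) and the fibre sum (549 CPM) are highest in knockout replicate 1.

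The 29 members lay on 17 chromosomes and none on chromosome 15, which holds Vdr. None shared exonic bases with another gene on its own strand, and 6 shared between 5 and 603 bases with a gene on the opposite strand. Those partner genes were at or below 2.73 CPM in every library except Nop56, at 15.1 to 18.2 CPM, which shares 5 bases with Idh3b.

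Of 36 other genes that act around these steps, in 6 lists, 32 were tested, 3 were called higher and none lower. Of all tested genes 1.91% were called higher and 0.558% lower, and the lists were chosen with earlier results of these data known. Among the kinases and phosphatases of pyruvate dehydrogenase, 1 of 6 was called. It was Pdk4, a kinase that switches the complex off, at 94.7 and 84.7 CPM in WT against 133 and 141 CPM in the knockout (0.61 ± 0.13, edgeR adjusted p = 0.0284). Pdk4 was not called without WT replicate 2 (log2 fold change 0.53, adjusted p = 0.140), knockout replicate 1 (0.65, 0.0839) or knockout replicate 2 (0.57, 0.0879), so the size of the change moved little while the adjusted p rose.

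Among carriers and the malate-aspartate shuttle, 1 of 6 tested genes was called. Slc25a10, which exchanges malate and succinate for phosphate across the inner membrane, stood at 9.67 and 12.3 CPM in WT against 22.8 and 32.3 CPM in the knockout (log2 fold change 1.31 ± 0.195, edgeR adjusted p = 0.00462). Both knockout libraries lay above both WT libraries. Among 4 tested genes of glutamate entry, Gpt, cytosolic alanine aminotransferase, which interconverts alanine and pyruvate, was called, at 11.0 and 10.5 CPM in WT against 19.2 and 21.2 CPM in the knockout (0.91 ± 0.15, adjusted p = 0.00777). Without each library in turn the log2 fold change ran from 1.05 to 1.54 for Slc25a10 and from 0.84 to 0.98 for Gpt. Slc25a1, the citrate carrier, was named after its values were seen, as the largest change in the carrier list. It stood at 11.3 and 28.6 CPM in WT against 47.4 and 54.0 CPM in the knockout (1.33 ± 0.55, adjusted p = 0.489), without overlap. The fat-cell markers were higher in the same libraries, and their part in the rises of Pdk4, Slc25a10 and Gpt was not tested.

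The remaining lists held no called gene. In acetyl-CoA and NADPH supply, all 5 tested genes were positive, and Acss1, mitochondrial acetyl-CoA synthetase, had the smallest p (0.28 ± 0.16, adjusted p = 0.488). The largest change there, also named after its values were seen, was that of Acly, which splits citrate into acetyl-CoA and oxaloacetate in the cytosol. Acly stood at 37.6 and 85.2 CPM in WT against 103 and 157 CPM in the knockout (1.08 ± 0.59, adjusted p = 0.591), without overlap, and the WT libraries lay far apart for Acly and Slc25a1 alike. In complex assembly and lipoate synthesis, 8 of 10 were positive and Mecr, of mitochondrial fatty acid synthesis, had the smallest p (0.30 ± 0.17, adjusted p = 0.487). Dhtkd1, of a minor oxo acid dehydrogenase, was at 0.84 ± 0.34 (adjusted p = 0.273).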

How the data were processed

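Raw counts were read as the authors deposited them, as whole numbers of reads per Ensembl gene ID with 1 count column per library. The submitters' processing notes name Trimmomatic, STAR and DESeq2 and the build GRCm38 (mm10). Versions, strand setting, annotation release and the treatment of reads with several matches were not given in the sources used here. GENCODE M21 on GRCm38 named 55394 of the 55573 IDs.

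Genes were kept by filterByExpr in edgeR 4.0.16 (minimum count 10, minimum total 15) and scaled by TMM, with factors from 0.9797 to 1.048. Knockout was compared with WT in R 4.3.3 by the robust quasi-likelihood test, on genotype alone, and p-values were adjusted over the 13076 tested genes. Standard errors come from the F statistic. Alternatives were DESeq2 1.42.0, voom in limma 3.58.1, other scalings and filters, a replicate block and leaving out each library.

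Every member is accounted for. Values per library are given for called members, those with an unadjusted p below 0.05, the extremes of each role and the enzyme pairs, and in other lists the called genes and the smallest p are named. The members and lists were chosen with earlier results of these data known. Levels between genes use the longest principal transcript.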

Additional observations from a re-analysis of the deposited data

How the results depend on the processing

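The count of members called higher was 3 with no filter on low counts, where Idh1 (0.543, adjusted p = 0.0103) and Idh2 (0.549, adjusted p = 0.00641) joined Pcx, and between 1 and 3 when each library was left out in turn. Without the filter 720 of 26657 tested genes were called, against 323 of 13076 with it. With the filter the log2 fold changes of Idh1 and Idh2 were 0.532 and 0.538, so their size barely moved. For Pcx the log2 fold change was 1.30 without the filter and 1.29 with it. Its edgeR adjusted p was 4.11e-17 without the filter and 0.00106 with it. The reason for the lower adjusted p was not tested. Under the other settings between 244 (edgeR without robust estimation, a setting chosen after seeing the data) and 319 were called, and without 1 library between 223 and 415. Pcx was called in each of these, with log2 fold changes from 1.28 to 1.34 outside the runs without 1 library. The replicate numbers pair nothing in the labels, and the deviations of same-numbered libraries correlated at 0.0514 over 6289 genes. With the replicate block 314 genes were called, 1 member was called, and no member changed its call.

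Some members changed sign under another setting. With no scaling beyond library size, which moved the median of all genes to 0.049, Dld was at 0.0355, Pdpr at 0.00601, Sucla2 at 0.0174 and Sdhb at 0.0401. Fh1 was at -0.00398 with DESeq2 and -0.000166 without genes of the mitochondrial genome. When 1 library was left out, the log2 fold change ranged from -0.131 to 0.0971 for Dld, -0.179 to 0.101 for Pdpr, -0.158 to 0.085 for Sucla2, -0.348 to 0.0328 for Mdh2, -0.0692 to 0.192 for Mpc1, -0.0622 to 0.15 for Ogdh, -0.0539 to 0.0319 for Sdhb, -0.0795 to 0.0783 for Fh1, -0.0979 to 0.173 for Dlat, -0.000353 to 0.224 for Idh3g and -0.0356 to 0.312 for Mdh1. The cause was not tested. The depth gave each member but Me2 at least 252 counts in every library, and the standard errors of the members had a median of 0.133.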
